A study of Mus musculus with 16 samples.

Results

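The genes described here are 48 mouse genes that type I interferons induce, taken as a named list and followed across bone marrow derived macrophages on 16 Illumina expression arrays. The list was chosen with earlier results of these data known. A gene entered through the probes whose symbol in the platform annotation is a list member, and Rigi was found there under its older symbol Ddx58. Of the 48 genes, 44 had a probe, 64 probes in all of the 25697 on the array. The filter kept probes with a detection p-value under 0.01 on 4 or more arrays; that p-value compares a probe with the array's negative controls. This kept 57 probes of 39 members, among 7647 genes and unnamed probes of the whole table. Ifi203, Herc6, Dtx3l and Ifi44 had no probe in the table used here. Ifih1, Ifit1 and Xaf1 had a probe that was detected on 0 arrays, and the probes of Parp9 and Trim25 were detected on 1 array each. Of the 39 kept members, 37 were detected on all 16 arrays, and Isg20 and Apol9b were detected on 8.

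Type I interferons are cytokines that nearly all cells make when their nucleic acid sensors are triggered. They bind a receptor of IFNAR1 and IFNAR2 chains, which activates the kinases JAK1 and TYK2, and a complex that contains STAT2 and IRF9 then binds the interferon stimulated response element in front of the induced genes. The induced genes include antiviral effectors, the sensors and signalling proteins themselves, and brakes on the pathway. Macrophages are known for a low constant interferon signal that keeps these genes partly on without infection.

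The study compared macrophages of Ndst1-deficient (Ndst1f/fLysMCre+) and wild-type (Ndst1f/fLysMCre-) mice, which share the floxed allele, the C57BL6 background and an age of 12 weeks. NDST1 is an enzyme that sulfates heparan sulfate, and Cre expressed from the lysozyme locus deletes its gene in myeloid cells. Marrow cells were grown with recombinant macrophage colony stimulating factor and then held for 24 h in medium with lipoprotein-deficient serum and 50 µg/ml aggregated LDL (agLDL) or 0 µg/ml, the untreated control; agLDL turns macrophages into cholesterol-loaded foam cells. The 4 groups were thus Ndst1-deficient with agLDL, Ndst1-deficient untreated, wild-type with agLDL and wild-type untreated, with 4 arrays each. By the labels, cells of 2 mice per genotype received both treatments, and every RNA was hybridised in duplicate, so 4 animals stand behind the 16 arrays. Arrays are called here by mouse and then duplicate number, as 2.2, 2.1, 1.2 and 1.1, and a mouse 2 of one genotype is another animal than the mouse 2 of the other. The p-values therefore measure a spread that is partly technical.

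The arrays detected between 9241 and 10115 probes, and no 2 arrays held identical values. Each genotype label lay on a slide of its own, and the 2 cannot be told apart. On both slides, positions A, B, E and F held mouse number 2 and positions C, D, G and H mouse number 1, so mouse number and position cannot be told apart either. Positions A to D held the untreated arrays and E to H those with agLDL. Duplicate number 1 lay at A, C, E and G, and duplicate number 2 at B, D, F and H. Treatment and duplicate number are thus tied to position as well. The probe of the deleted gene was not analysed here, and the genotype labels stand as given. Of 7 macrophage markers with a probe, 7 were kept and detected on all 16 arrays, among them Adgre1, Lyz2, Cd14 and Mertk. In RNA of mixed cells, fewer cells of a type and less RNA per cell cannot be told apart. Levels are given as normalized log2 signal after background correction, and changes as differences on that log2 scale, and the level of 1 probe is not set against that of another.

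The promoters of 5 members are shown to set windows with the exact core of an interferon response element beside a window without that core. Apol9b, Isg15, Oas3 and Stat2 come from different role groups and are the members with the widest change between mouse numbers among those whose window holds the core. Oasl1 is the member with the widest change, by the probe used, among those detected on all arrays whose window holds none; the windows of Irf7, Ifit2 and Cmpk2 also held none. Each window runs from 250 bases before to 50 bases after the annotated start, 5′ to 3′ on the gene's strand, in GRCm38.p6 from RefSeq. Capitals mark the core of the interferon stimulated response element, GAAANNGAAA, searched on both strands with overlapping matches counted. The window of Apol9b lies at chr15:77728822-77729121 on the plus strand and held 2 cores. That of Isg15 lies at chr4:156200769-156201068 on the minus strand and held 3 overlapping cores. Oas3 at chr5:120777610-120777909 (minus strand) and Stat2 at chr10:128270248-128270547 (plus strand) held 1 core each, and Oasl1 at chr5:114922990-114923289 (plus strand) held 0.
Apol9b: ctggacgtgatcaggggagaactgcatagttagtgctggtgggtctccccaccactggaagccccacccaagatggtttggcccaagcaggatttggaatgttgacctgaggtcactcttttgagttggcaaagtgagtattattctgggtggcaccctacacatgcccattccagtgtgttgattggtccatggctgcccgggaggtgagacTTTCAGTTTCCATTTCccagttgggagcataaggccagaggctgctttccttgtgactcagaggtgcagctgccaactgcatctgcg
Isg15: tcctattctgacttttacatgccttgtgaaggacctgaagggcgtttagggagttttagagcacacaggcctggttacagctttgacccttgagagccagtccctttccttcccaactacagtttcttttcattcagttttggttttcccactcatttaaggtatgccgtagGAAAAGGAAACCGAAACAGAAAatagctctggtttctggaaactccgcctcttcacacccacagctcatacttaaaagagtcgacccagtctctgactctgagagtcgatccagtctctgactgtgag
Oas3: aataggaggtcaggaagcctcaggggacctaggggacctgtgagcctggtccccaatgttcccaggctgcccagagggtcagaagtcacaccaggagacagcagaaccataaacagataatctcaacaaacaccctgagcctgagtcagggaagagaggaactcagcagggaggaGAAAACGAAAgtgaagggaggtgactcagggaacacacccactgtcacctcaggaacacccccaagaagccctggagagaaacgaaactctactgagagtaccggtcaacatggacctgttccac
Stat2: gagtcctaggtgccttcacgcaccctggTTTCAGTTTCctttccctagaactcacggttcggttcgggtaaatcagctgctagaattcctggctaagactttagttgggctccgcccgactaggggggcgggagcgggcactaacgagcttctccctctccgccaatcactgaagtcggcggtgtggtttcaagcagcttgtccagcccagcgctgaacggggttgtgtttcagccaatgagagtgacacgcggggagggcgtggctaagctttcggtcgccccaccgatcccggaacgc
Oasl1: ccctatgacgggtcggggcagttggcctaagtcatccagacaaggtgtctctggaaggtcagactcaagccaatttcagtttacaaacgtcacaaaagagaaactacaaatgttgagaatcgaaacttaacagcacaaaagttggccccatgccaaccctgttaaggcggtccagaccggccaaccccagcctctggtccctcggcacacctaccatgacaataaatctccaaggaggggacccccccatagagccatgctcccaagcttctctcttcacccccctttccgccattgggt

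The promoter table held windows for 35 of the 48 members, and 17 of these 35 genes (48.6%) had the core in a window, against 1079 of the table's 27025 genes (3.99%). The gamma activated site TTCNNNGAA, which interferon gamma responses use, was found for 8 of the 35 members (22.9%) and for 9.55% of all genes. A match describes the letters in the window and not a bound site. Only exact matches were searched, so a window without the core may still hold a looser form of the element. The 14 kept members with the core had a median log2 change of -0.71 between mouse number 2 and mouse number 1, the comparison described next, and the 13 kept members with a window and no core had -0.70. The former include Apol9b and the latter Isg20. Neither was detected on mouse number 2, and the detection filter kept both through mouse number 1. The members with and without the core thus had near-equal medians in that comparison.

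The interferon stimulated genes differed most by the mouse number in the labels. On the 8 arrays of mouse number 2 most members were lower than on the 8 arrays of mouse number 1, under both genotype labels and with or without agLDL. Of the 37 members detected on all 16 arrays, 32 were lower on mouse number 2, 1 (Ifi27) was higher, and Irf9, Zbp1, Ifitm3 and Ifi27l2a did not pass the test. The test was limma with Benjamini-Hochberg adjustment over all 7647 genes, with number and group as terms. Among the 6515 genes detected on all arrays, 14.8% were lower and 18.3% were higher. The members' median log2 change was -0.69, and the median of all genes was 0.01. Isg20 and Apol9b were also lower, which makes 34 of 39, against 14.9% of all 7647 genes. The filter on detection kept these 2 only through mouse number 1. As the members were chosen with earlier results of these data known, their counts are a description and not separate support.

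Between mouse numbers 24 of the 37 members detected on all arrays were lower by at least 1.5-fold and Ifi27 was higher by as much, against 2.75% and 2.21% of the genes detected on all arrays. For 21 of the 37 the highest array of mouse number 2 lay below the lowest array of mouse number 1, which held for 2.62% of these genes. Ifi27 was the 1 member whose arrays of mouse number 2 all lay above those of mouse number 1, which held for 1.49% of them. For the other 15 the arrays of the mouse numbers overlapped. The 37 members averaged 0.56 to 0.91 log2 units above the mean of all detected genes on the arrays of mouse number 2, and 1.37 to 1.57 above it on those of mouse number 1, with no overlap.

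**Figure D1:**
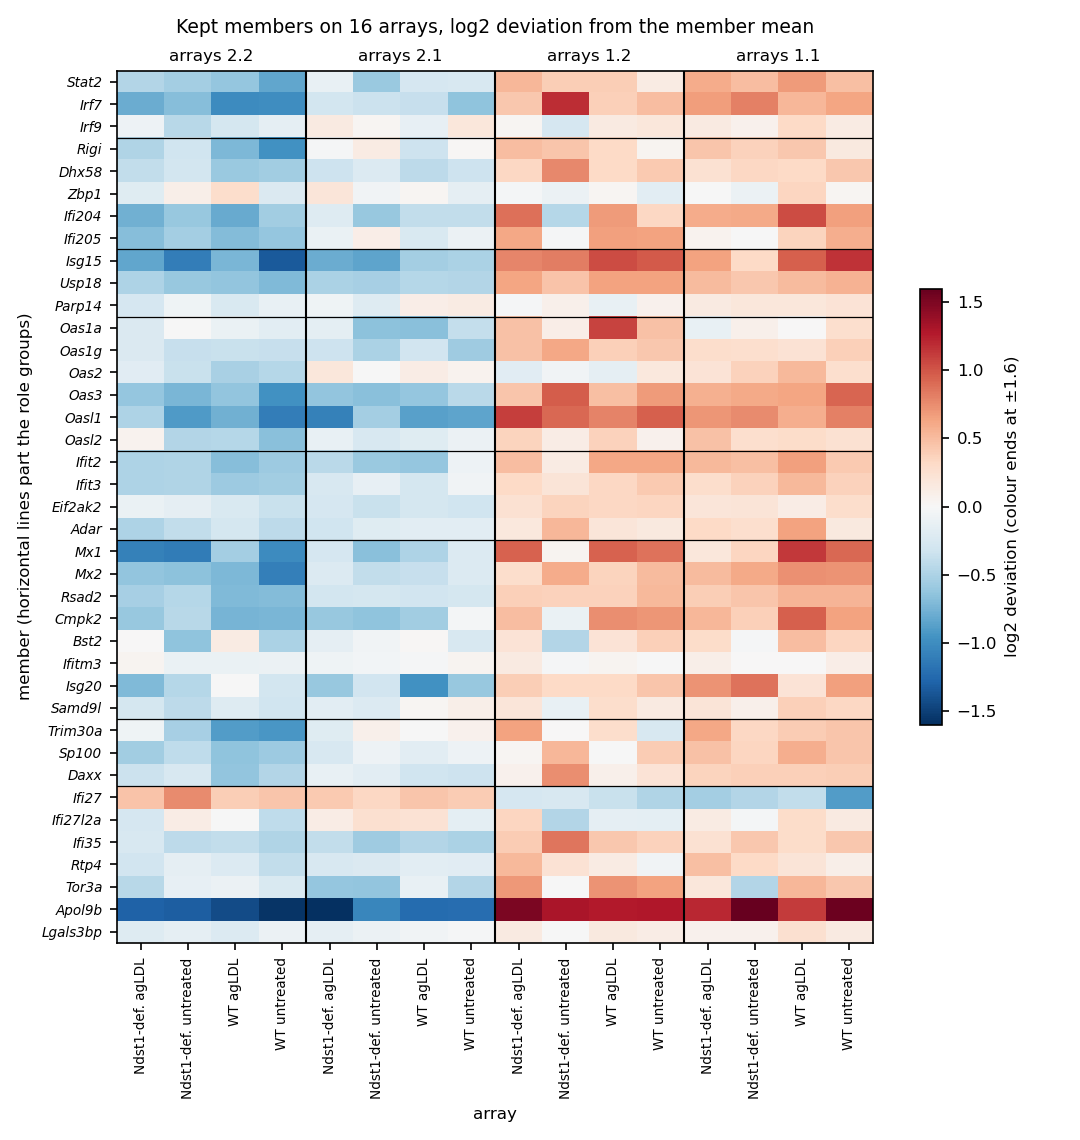
Colour map of the 39 kept members (down the page, in role groups) on the 16 arrays (across, ordered by number), as the log2 deviation from each member's mean over all arrays. Most members are blue on the arrays numbered 2.2 and 2.1 and red on those numbered 1.2 and 1.1, Ifi27 has the opposite colours, and Zbp1, Ifitm3 and Ifi27l2a show little of either pattern.

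In the colour map of members by array, the colour changes more between the mouse numbers than between the 4 groups within a number. For the median member, mouse number took up 77.7% of the variance over the 16 arrays, duplicate number 4.05%, genotype label 1.24% and agLDL 0.656%. For the median of all genes these shares were 10.6%, 21.7%, 3.23% and 2.15%. The members also varied more, with a median SD over the arrays of 0.45 log2 units against 0.25 for all genes. By mouse number the share ranged from 97.9% for Usp18 down to 0.00315% for Zbp1.

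Of the 3 members that act in signalling and transcription, Stat2 and Irf7 were lower on mouse number 2 and Irf9 did not pass the test. IRF7 is the factor that amplifies interferon production. Irf7 ran from 11.00 to 11.71 with a median of 11.34 on the arrays of mouse number 2, and from 12.38 to 13.19 with a median of 12.58 on those of mouse number 1. These arrays did not overlap, and the log2 change was -1.28 ± 0.08 (SE; adjusted p = 1.63e-07). By animal, Irf7 averaged 11.48 in Ndst1-deficient mouse 2 and 12.78 in Ndst1-deficient mouse 1, and 11.25 in wild-type mouse 2 and 12.51 in wild-type mouse 1. STAT2 and IRF9 are subunits of the complex that reads the response element. Stat2 averaged 9.36 ± 0.23 on mouse number 2 and 10.29 ± 0.17 on mouse number 1 (SD, n = 8 arrays each), without overlap, a log2 change of -0.93 ± 0.07 (SE; adjusted p = 4.85e-07). Irf9 ran from 10.49 to 11.11 on mouse number 2 and from 10.66 to 11.25 on mouse number 1, which overlap widely. Its change was -0.19 ± 0.07 (adjusted p = 0.0534), and its second probe, at -0.29, was called, so the probes of Irf9 differ in their call.

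Of the 5 kept nucleic acid sensors 4 were lower on mouse number 2. Dhx58, which encodes the RNA helicase LGP2, ran from 11.51 to 11.88 with a median of 11.74 on mouse number 2 and from 12.34 to 12.87 with a median of 12.43 on mouse number 1. Its arrays did not overlap, and it changed by -0.78 ± 0.06 (adjusted p = 9.22e-07). Rigi, the sensor of viral RNA ends, changed by -0.68 ± 0.08 (adjusted p = 2.45e-05), with arrays that overlapped. The DNA-binding family members Ifi204 and Ifi205 also fell: Ifi204 averaged 6.43 ± 0.20 on mouse number 2 and 7.51 ± 0.46 on mouse number 1 (SD, n = 8 each), a change of -1.08 ± 0.14 (adjusted p = 5.53e-05), and Ifi205 changed by -0.72 ± 0.11 (adjusted p = 0.000192). The arrays of both genes overlapped between mouse numbers. The second Ifi205 probe, detected on 13 arrays, had -1.54, and the probe used was not called within the Ndst1-deficient label (-0.47 ± 0.15, adjusted p = 0.1). Ifi204 was not called within that label either (-0.96 ± 0.24, adjusted p = 0.0558). Zbp1, which binds left-handed nucleic acid, did not pass the test, with a median of 7.64 on mouse number 2 and 7.63 on mouse number 1 and a change of -0.00 ± 0.07 (adjusted p = 0.989).

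All 3 kept members of the ISG15 and ADP-ribosylation group were lower on mouse number 2. ISG15 is a ubiquitin-like protein that is attached to other proteins. Isg15 ran from 9.64 to 10.48 with a median of 10.18 on the arrays of mouse number 2, and from 11.31 to 12.14 with a median of 11.88 on those of mouse number 1. The 2 sets of arrays lay apart, and the log2 change of -1.68 ± 0.10 (adjusted p = 8.71e-08) amounts to 3.20-fold. Its animal means were 10.09 in Ndst1-deficient mouse 2 and 11.63 in Ndst1-deficient mouse 1, and 10.20 in wild-type mouse 2 and 12.02 in wild-type mouse 1. USP18 removes ISG15 and dampens signalling at the receptor. Usp18 averaged 11.75 ± 0.09 on mouse number 2 and 12.85 ± 0.08 on mouse number 1 (SD, n = 8 each), a log2 change of -1.09 ± 0.05 (adjusted p = 5.79e-09). All 3 of its probes were lower, by 1.09 to 1.31 on the log2 scale. Parp14, an ADP-ribosyltransferase, changed by -0.19 ± 0.06 (adjusted p = 0.0289), with arrays that overlapped, and lost its call in 9 of the 16 fits that left out 1 array.

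All 6 oligoadenylate synthetase genes were lower on mouse number 2. The active enzymes of the family make oligoadenylates that switch on RNase L, while mouse OASL1 lacks that activity and restrains Irf7 translation. Oasl1 ran from 8.23 to 8.84 with a median of 8.48 on mouse number 2 and from 9.92 to 10.45 with a median of 10.14 on mouse number 1, without overlap. Its log2 change was -1.66 ± 0.09 (adjusted p = 4.91e-08), and its 2 further probes had -1.83 and -1.85. Oas3 averaged 9.35 ± 0.15 on mouse number 2 and 10.68 ± 0.20 on mouse number 1 (SD, n = 8 each), a change of -1.33 ± 0.09 (adjusted p = 2.83e-07). Oas1g at -0.76, Oas1a at -0.59, Oasl2 at -0.55 and Oas2 at -0.29 completed the group. The arrays of Oas1a and Oas2 overlapped between mouse numbers. Oas1a and Oas1g belong to a cluster of near-identical copies, so their probes may share targets, which was not tested.

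Between numbers, the IFIT and translation group fell in all of its 4 kept members, without overlap in any of them. IFIT proteins bind foreign RNA and block its translation. Ifit2 ran from 11.75 to 12.35 with a median of 11.89 on mouse number 2 and from 12.56 to 13.08 with a median of 12.94 on mouse number 1, a log2 change of -0.99 ± 0.09 (adjusted p = 2.48e-06). Ifit3 averaged 13.67 ± 0.20 on mouse number 2 and 14.38 ± 0.10 on mouse number 1 (SD, n = 8 each), a change of -0.71 ± 0.06 (adjusted p = 1.38e-06). Eif2ak2 encodes the RNA-activated kinase PKR that halts translation, and Adar an enzyme that edits adenosines in RNA. Eif2ak2 changed by -0.52 ± 0.05 (adjusted p = 1.04e-05) and Adar by -0.61 ± 0.07 (adjusted p = 2.85e-05).

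Among the 8 genes that restrict viral entry, replication and release, 7 were lower on mouse number 2. These 7 include Isg20, which the detection filter kept through mouse number 1 alone. Mx1 and Mx2 belong to a family of GTPase genes whose intact proteins trap viral components, and the proteins were not measured here. Mx1 ran from 7.18 to 8.08 with a median of 7.69 on mouse number 2 and from 8.34 to 9.42 with a median of 9.18 on mouse number 1, with no overlap. Its log2 change was -1.35 ± 0.12 (adjusted p = 3.04e-06). Mx2 averaged 8.76 ± 0.29 on mouse number 2 and 9.83 ± 0.16 on mouse number 1 (SD, n = 8 each), a change of -1.08 ± 0.08 (adjusted p = 5.34e-07). Rsad2 encodes viperin, which makes a chain-terminating nucleotide, and its neighbour Cmpk2 encodes a nucleotide kinase. Cmpk2 changed by -1.09 ± 0.12 (adjusted p = 1.65e-05) and Rsad2 by -0.89 ± 0.06 (adjusted p = 1.53e-07). The arrays of Cmpk2 overlapped between mouse numbers, and those of Rsad2 did not. Samd9l, a growth restraint gene, changed by -0.38 and Bst2, whose protein tethers budding virus to the cell, by -0.37, both with overlapping arrays. Ifitm3, whose protein blocks viral fusion, did not pass the test at -0.09 ± 0.05 (adjusted p = 0.176). With a mean raw signal of 29428 its probe lay near the top of the scale, where the brightest probe of each array read between 39782 and 45373. The exonuclease gene Isg20 was detected on 0 arrays of mouse number 2 and on 8 of mouse number 1, at least 1.24-fold lower.

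Sp100, Daxx and Trim30a, the 3 kept TRIM and nuclear body genes, were lower on mouse number 2. SP100 and DAXX are components of PML nuclear bodies. Sp100 ran from 8.24 to 8.80 with a median of 8.54 on mouse number 2 and from 8.87 to 9.46 with a median of 9.31 on mouse number 1, close but without overlap, and changed by -0.70 ± 0.08 (adjusted p = 1.74e-05). Daxx averaged 10.68 ± 0.16 on mouse number 2 and 11.33 ± 0.22 on mouse number 1 (SD, n = 8 each), a change of -0.66 ± 0.08 (adjusted p = 3.5e-05). Trim30a changed by -0.62 ± 0.12 (adjusted p = 0.00142), with overlapping arrays.

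Among the 7 other kept members, Ifi35, Tor3a, Rtp4 and Lgals3bp were lower on mouse number 2, Ifi27 was higher and Ifi27l2a did not pass the test. Apol9b, an apolipoprotein L gene, was detected on 0 arrays of mouse number 2 and on 8 of mouse number 1. On mouse number 1 it ran from 7.85 to 8.46, and against the detection limit it was at least 4.69-fold lower on mouse number 2. The detection filter kept it through mouse number 1 alone, so no test is given for it. Ifi27, a small mitochondrial membrane protein gene, went the other way. It ran from 10.90 to 11.32 with a median of 11.00 on mouse number 2 and from 9.67 to 10.31 with a median of 10.13 on mouse number 1, without overlap. Its log2 change was 0.91 ± 0.07 (adjusted p = 6.35e-07), and both of its probes were higher. Its relative Ifi27l2a did not pass the test, with medians of 12.55 on both mouse numbers and a change of -0.03 ± 0.11 (adjusted p = 0.868). Ifi35 changed by -0.87 ± 0.07 (adjusted p = 1.56e-06), the torsin ATPase gene Tor3a by -0.69 ± 0.11 (adjusted p = 0.000305) and the receptor chaperone gene Rtp4 by -0.48 ± 0.07 (adjusted p = 0.000202). The arrays of Tor3a overlapped between mouse numbers, and within the Ndst1-deficient label it was not called (-0.56 ± 0.18, adjusted p = 0.105). Lgals3bp, a secreted galectin-binding glycoprotein gene, changed by -0.24 ± 0.05 (adjusted p = 0.00265) at a mean raw signal of 27525, also near the top of the scale. Of the 12 members with more than 1 kept probe, all probes had the same sign in 12 and all were called in 11, Irf9 being the exception.

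**Figure D2:**
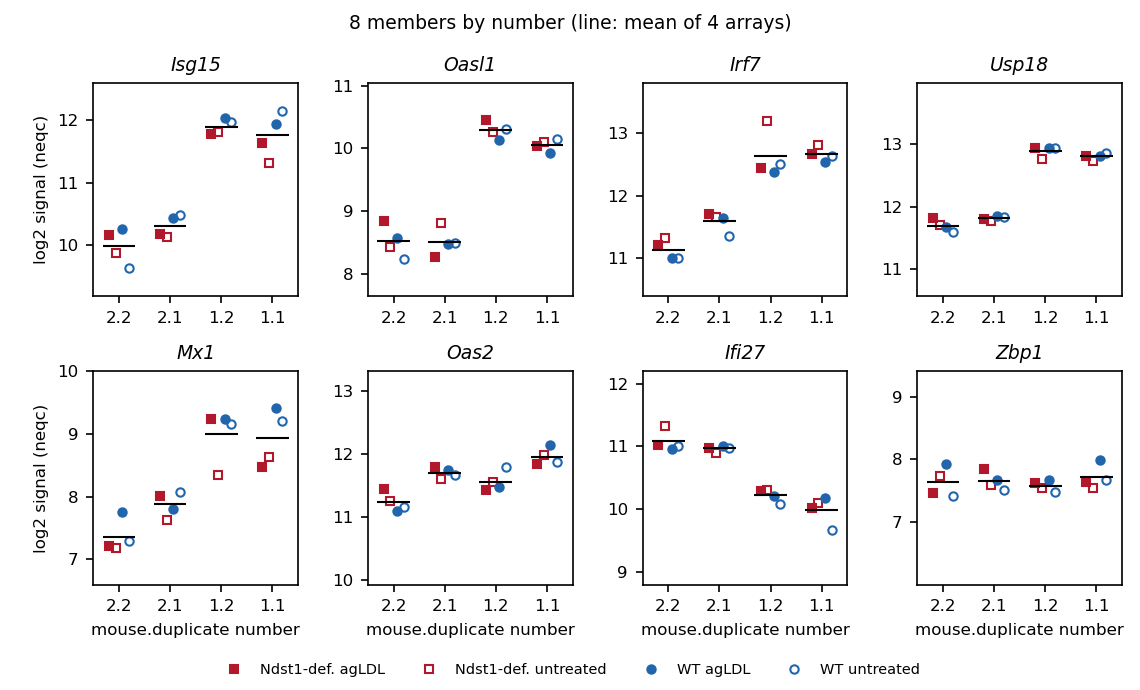
Normalized log2 signal of 8 members on every array, by mouse and duplicate number (2.2, 2.1, 1.2, 1.1), with a line at the mean of the 4 arrays of a number. Squares are Ndst1-deficient and circles wild-type, filled with agLDL and open without. Isg15, Oasl1, Irf7, Usp18 and Mx1 lie lower at 2.2 and 2.1, Ifi27 lies higher there, Oas2 steps with the duplicate number as well, and the means of Zbp1 show no step between mouse numbers.

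In the plot of single arrays by number, the groups within a number lie closer together than the mouse numbers do for Isg15, Oasl1 and Usp18, and for Irf7 the Ndst1-deficient squares lie above the wild-type circles of the same treatment at every number. The change between mouse numbers was also fitted within each genotype label, which is also within a slide and within 2 animals. Each such fit sets 1 animal against 1 other, so its p-values measure no spread between animals. On the 8 Ndst1-deficient arrays 23 of the 37 members detected on all arrays were lower and 1 higher, against 4.7% of the genes detected on all arrays lower and 4.79% higher. On the 8 wild-type arrays 30 were lower and 1 higher, against 6.69% and 7.24% of these genes. The median changes of the 37 were -0.62 under the Ndst1-deficient label and -0.76 under the wild-type label. Isg15 changed by -1.54 ± 0.10 under the Ndst1-deficient label and by -1.82 ± 0.14 under the wild-type label. Irf7 changed by -1.30 ± 0.14 and -1.26 ± 0.10 in the same order, and Ifi27 was the gene called higher under both.

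**Figure D3:**
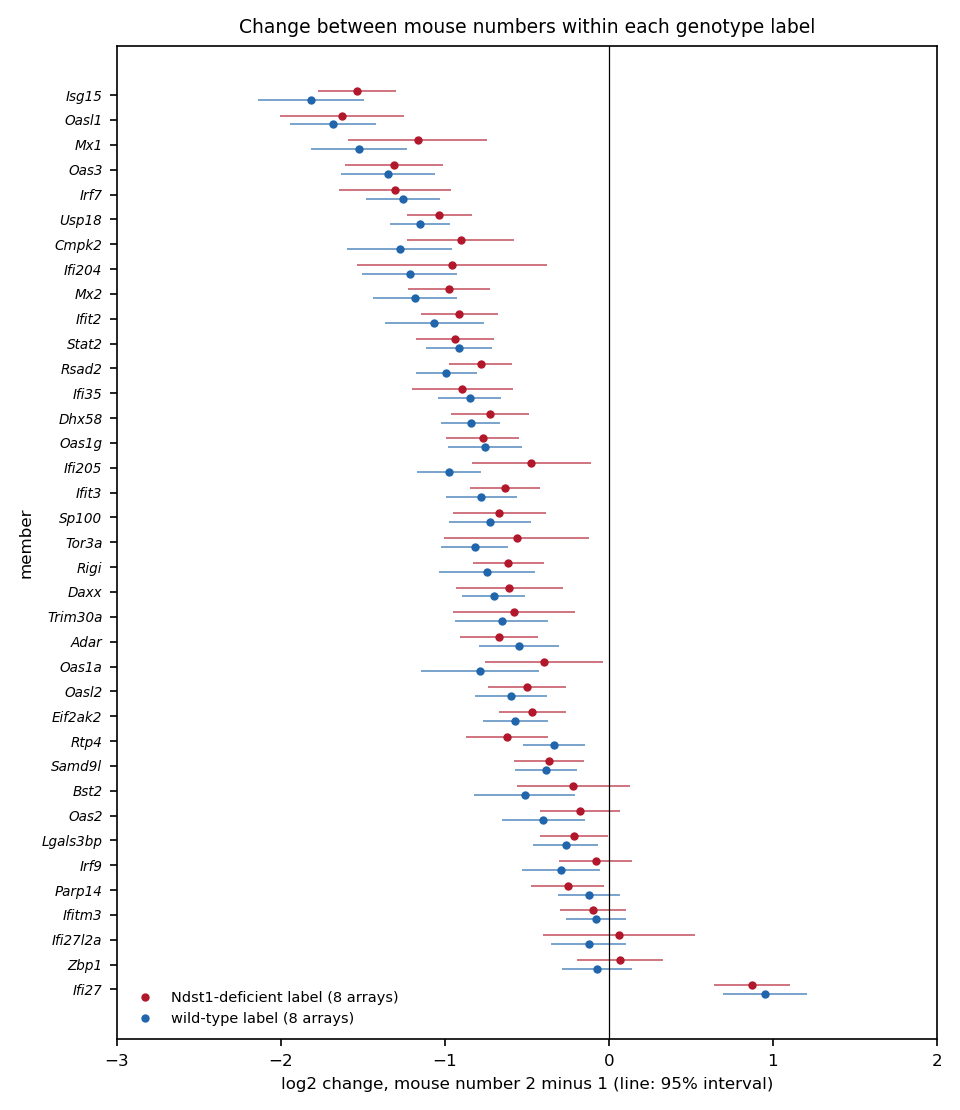
Log2 change of each of the 37 members detected on all arrays between mouse number 2 and mouse number 1 (x axis), fitted on the 8 Ndst1-deficient arrays (red) and on the 8 wild-type arrays (blue), with 95% intervals as lines. Most points of both colours lie left of 0, and Ifi27 lies to the right of 0 in both.

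In the plot of changes within labels, the intervals of the 2 labels overlap for most members, and the difference between labels was tested as a term of its own. That term rests on 4 animals, 1 for each label and mouse number, so its p-values measure no spread between animals either. For 0 members did the mouse number change differ between genotype labels (smallest adjusted p = 0.740), as for 0% of all genes. At an unadjusted p under 0.05 there were 2 members, Ifi205 and Rtp4, and 435 of all 7647 genes. Between agLDL and untreated arrays the mouse number change also differed for 0 members (smallest adjusted p = 0.623), again with 0% of all genes. Unadjusted, there were 3 members, Irf7, Cmpk2 and Ifi35, and 603 of all genes. Within agLDL arrays 30 of the 37 were lower and 1 higher, against 8.14% and 8.92% of the genes detected on all arrays, and within untreated arrays 26 were lower and 1 higher, against 6.26% and 6.55%. With 1 mean per animal, 4 values in all, 29 of the 37 were lower and 1 higher, against 9.13% and 10.5%.

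Genes upstream of the members were also followed. Of 30 listed ligands, receptors, kinases, adaptors and regulators, 26 had a probe and 18 were kept. Among these 5 were lower on mouse number 2, 2 were higher and 11 were not called, beside 14.9% of all genes lower and 18.1% higher. The ligand genes Ifnb1, Ifna2 and Ifna4 were not kept, nor were Ifnar1, Jak1, Socs1, Cgas and Tlr3. Ifna1 was detected on 5 arrays of mouse number 2 and on 3 of mouse number 1, with means of 5.88 ± 0.35 on mouse number 2 and 5.76 ± 0.39 on mouse number 1 (SD, n = 8 each), and was not called (adjusted p = 0.644). Trex1, the exonuclease that removes stray DNA, had a log2 change of -0.74 ± 0.09 (SE), Ticam1 -0.30 ± 0.10, Samhd1 -0.29 ± 0.09, Irf5 -0.23 ± 0.06 and Myd88 -0.23 ± 0.05. Ticam2, an adaptor of Toll-like receptors, was higher by 0.34 ± 0.06. The other gene counted as higher was Socs3, a brake on cytokine signalling. Socs3 was detected on 4 arrays of mouse number 2 and on 1 of mouse number 1. The filter on detection thus kept it through mouse number 2, and no test is given for it. The receptor gene Ifnar2 and the kinase gene Tyk2 did not pass the test.

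A further list of 42 genes that interferons are known to induce, outside the 48, had 31 genes with a probe and 24 kept. On mouse number 2 20 of the 24 were lower and 0 higher, with a median log2 change of -0.61, beside 14.9% of all genes lower. Of the 24, 21 were detected on all arrays, and Oas1c and Gbp7, detected on 15 and 12, were among the lower ones. Phf11d changed by -1.26 ± 0.08, the RNA helicase gene Helz2 by -1.09 ± 0.08 and the class I histocompatibility gene H2-K1 by -1.02 ± 0.09. This list holds genes that interferon gamma also induces, such as the guanylate-binding protein genes Gbp2 and Gbp3. Like the 48, it was chosen with earlier results of these data known, so its count is a description and not separate support.

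Some markers of other cells also differed by mouse number. Of 9 stromal markers 4 were kept: Acta2, Sparc, Bgn and Col1a1. Their summed linear signal was 637 to 987 on mouse number 2 and 2324 to 3103 on mouse number 1. Acta2, the smooth muscle actin gene and the 1 marker of the 4 detected on all arrays, averaged 9.38 ± 0.23 on mouse number 2 and 11.04 ± 0.18 on mouse number 1 (SD, n = 8 each), a log2 change of -1.66 ± 0.09 (SE; adjusted p = 2.51e-08). Sparc was detected on 0 arrays of mouse number 2 and on 8 of mouse number 1, Bgn on 1 and 8, and Col1a1 on 0 and 4, so the filter kept these 3 through mouse number 1. Col1a2, Col3a1, Dcn, Lum and Pdgfra were not kept. Plasmacytoid dendritic cells are known as strong interferon producers. Of their markers, Siglech, Spib, Ccr9, Klk1, Ly6d and Pacsin1 were not kept. Only Tcf4 was, higher on mouse number 2 by 0.34 on the log2 scale. The conventional dendritic cell marker Batf3 was higher by 0.42 and the other 6 were not kept. Of the T and NK cell markers 0 of 7 with a probe were kept. Of 8 kept neutrophil markers 2 were higher, and of 7 kept macrophage markers 3 were higher and 2, Fcgr1 and Spi1, were lower. Between mouse numbers 18.1% of all genes were higher and 14.9% lower. Fcgr1 is itself induced by interferons. The part of these cells in the members' change was not tested.

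Between duplicate numbers the share of members called was near that of all genes or below it. On the arrays of duplicate number 2, 12 of the 39 members were lower and 2 higher than on duplicate number 1, while 25.5% of all genes were lower and 23.1% higher. The members' shares, 30.8% lower and 5.13% higher, are near the background in the lower direction. Their median log2 change was -0.15, against -0.02 for all genes. By at least 1.5-fold 0 members were called, against 5.07% of all genes lower and 6.09% higher, and 0 members had arrays that did not overlap, against 4.39% below and 5.96% above.

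The 3 signalling genes Stat2, Irf7 and Irf9 were all lower on duplicate number 2, at -0.25, -0.24 and -0.22, and Irf7 lost its call in 6 of the 16 fits that left out 1 array. Trim30a had the widest change, -0.44 ± 0.12 (adjusted p = 0.00741), followed by Oas2 at -0.43 ± 0.08 (adjusted p = 0.00042). Oas2 averaged 11.24 ± 0.15 at number 2.2 and 11.71 ± 0.08 at 2.1, and 11.56 ± 0.16 at 1.2 and 11.96 ± 0.13 at 1.1 (SD, n = 4 each), so it was lower on duplicate number 2 within both mouse numbers. Mx2 at -0.34, Sp100 at -0.31, Rigi at -0.30, Ifit3 at -0.21, Rsad2 at -0.19, Samd9l at -0.18 and Parp14 at -0.17 were the others lower. Oas1a at 0.40 ± 0.12 (adjusted p = 0.0142) and Tor3a at 0.28 ± 0.11 (adjusted p = 0.043) were higher. Without 1 array, Parp14 lost its call in 11 of the 16 fits and Tor3a in 9. The probes of Tor3a disagreed between duplicate numbers, from -0.13 to 0.28, and those of Ifi27 and Usp18 also differed in sign, with 0 of theirs called. Of the 3 Adar probes 1 was called and of the 3 Ifit3 probes 2 were.

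Within mouse number 2, 13 members were lower on duplicate number 2, against 18.6% of all genes, with Trim30a at -0.60 ± 0.17 and Rigi at -0.57 ± 0.11. Within mouse number 1, Oas2 was the 1 member lower, against 15.7% of all genes. The interaction of mouse and duplicate number was called for 0 members, against 0.0915% of all genes lower and 0.0131% higher. At an unadjusted p under 0.05 in that fit there were 8 of the 39 members and 637 of all 7647 genes. The 8 include Isg20, which was not detected on mouse number 2. The change between mouse numbers was present within both duplicates: of the 37 members detected on all arrays 29 were lower within duplicate number 2, against 7.61% of the genes detected on all arrays, and 26 within duplicate number 1, against 9.72%. Fitted within the Ndst1-deficient label, 1 member was lower and 0 higher on duplicate number 2, against 13.8% and 12.7% of all genes, and within the wild-type label 9 were lower and 1 higher, against 15.4% and 14.3%. Within agLDL arrays 7 were lower and 2 higher, against 21% and 19.7% of all genes, and within untreated arrays 3 were lower and 0 higher, against 10% and 10.2%. Of the 18 kept upstream genes 12 were lower and 0 higher on duplicate number 2, beside 25.5% and 23.1% of all genes. They were Tyk2, Irf1, Irf3, Socs3, Ptpn6, Tbk1, Ikbke, Tlr7, Myd88, Ticam2, Trex1 and Samhd1. Socs3 was detected on 5 arrays only, near the detection limit, so its place in this count carries no weight.

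The labelled comparisons asked how cholesterol loading and the loss of the sulfating enzyme bear on these genes, and 0 of the 39 members passed the test in any of them. Duplicate arrays were averaged first, and the resulting 8 values were fitted in limma with the group as the term. In agLDL against untreated cells 0 members were called under the Ndst1-deficient label and 0 under the wild-type label, against 0% of all genes in each. In Ndst1-deficient against wild-type cells 0 members were called with agLDL and 0 without, and 0 in the interaction of genotype label and agLDL, again against 0% of all genes. At an unadjusted p under 0.05 the number of members was 1 (Zbp1, agLDL under the wild-type label) and otherwise 0, among 45 to 383 genes in the 4 comparisons of pairs and 77 in the interaction.

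**Figure D4:**
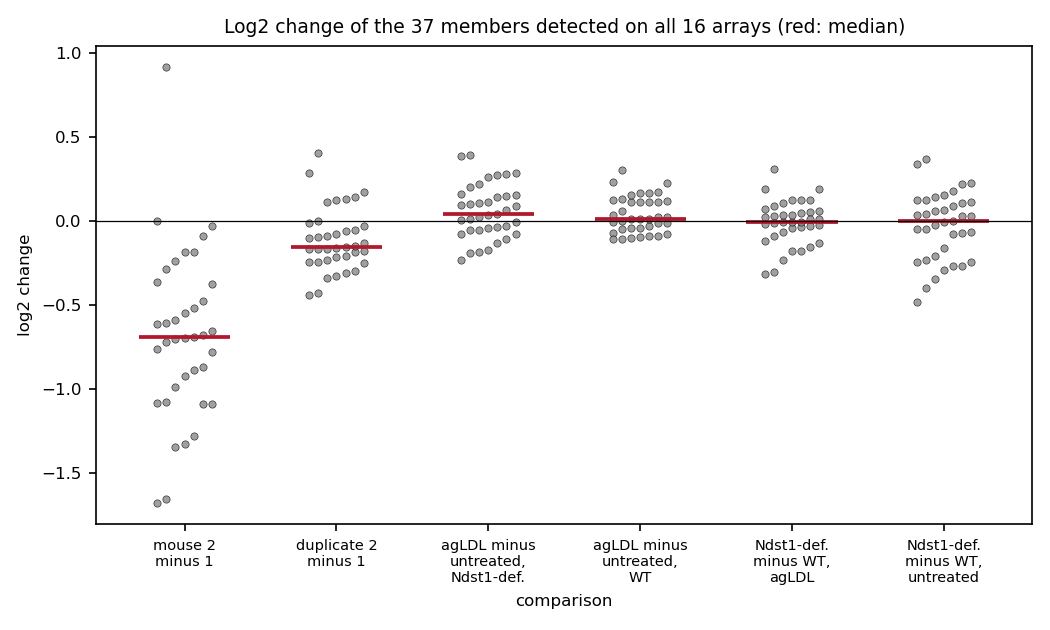
Log2 change of each of the 37 members detected on all arrays (points) in 6 comparisons, with the median as a red line. The points spread from -1.68 to 0.91 between mouse numbers, with a median of -0.69, and stay within 0.49 of 0 in the 4 labelled comparisons, with medians between -0.01 and 0.04.

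The plot of changes by comparison sets the sizes side by side. With agLDL the median log2 change of the 37 members was 0.04 under the Ndst1-deficient label, ranging from -0.24 to 0.39, and 0.01 under the wild-type label, ranging from -0.11 to 0.30. Between Ndst1-deficient and wild-type cells the median was -0.01 with agLDL, ranging from -0.32 to 0.31, and -0.00 without, ranging from -0.49 to 0.37. Of the 37 members, 32 changed less with agLDL under the Ndst1-deficient label, in absolute terms, than between mouse numbers, and 35 did so under the wild-type label. Between genotype labels these counts were 36 with agLDL and 34 without.

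Isg15 averaged 10.94 ± 1.076 in Ndst1-deficient cells with agLDL and 10.79 ± 1.096 in untreated ones, and 11.17 ± 1.157 in wild-type cells with agLDL and 11.06 ± 1.415 in untreated ones (SD, n = 2 mice each). The SD within each group holds the distance between the mouse numbers, so the intervals were wide: for agLDL under the Ndst1-deficient label the change was 0.15, with a 95% interval from -2.05 to 2.35. With the number as a replicate block on the 16 arrays that interval narrowed to -0.16 to 0.46, and 0 members were called in any labelled comparison. In that fit 4 members had an unadjusted p under 0.05 for agLDL under the Ndst1-deficient label (Irf9, Oasl2, Bst2 and Samd9l, all higher with agLDL), 1 under the wild-type label (Zbp1), 7 for genotype without agLDL and 0 for genotype with agLDL. Of all 7647 genes 749, 216, 1094 and 609 had such a p in these comparisons, in the same order. For genotype without agLDL, the smallest p in that fit belonged to Samd9l at -0.23 ± 0.07 (adjusted p = 0.164), Irf7 at 0.37 ± 0.12 (adjusted p = 0.174) and Rigi at 0.34 ± 0.11 (adjusted p = 0.182), and Mx1 had -0.49 ± 0.17 (adjusted p = 0.224). Among all genes it called 0.785% lower and 0.17% higher for genotype without agLDL.

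Zbp1 had the smallest unadjusted p of any member with agLDL under the wild-type label. In wild-type cells it read 7.93, 7.68, 7.68 and 7.99 with agLDL on the arrays numbered 2.2, 2.1, 1.2 and 1.1, and 7.42, 7.51, 7.48 and 7.68 untreated. It was higher with agLDL at 4 of 4 numbers, by 0.30 ± 0.11 (SE; limma, adjusted p = 0.99992). In Ndst1-deficient cells it read 7.46, 7.84, 7.62 and 7.64 with agLDL and 7.74, 7.59, 7.55 and 7.55 untreated, a change of 0.03 ± 0.11, and the interaction was -0.27 ± 0.15 (adjusted p = 0.99998). With agLDL, Ndst1-deficient cells had a log2 change of -0.18 ± 0.11 against wild-type. None of these passed the adjusted threshold.

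Bst2 averaged 10.84 ± 0.23 in Ndst1-deficient cells with agLDL and 10.45 ± 0.08 in untreated ones (SD, n = 2 mice each), a change of 0.39 ± 0.25 (SE; adjusted p = 0.99997) that was positive at 3 of 4 numbers. Under the wild-type label its change with agLDL was 0.22 ± 0.26, and untreated Ndst1-deficient cells had -0.29 ± 0.26 against wild-type. Irf9 averaged 11.00 ± 0.04 in Ndst1-deficient cells with agLDL and 10.78 ± 0.07 in untreated ones, higher at 4 of 4 numbers, a change of 0.22 ± 0.16 (adjusted p = 0.99997). Untreated wild-type cells had 11.02 ± 0.10, so untreated Ndst1-deficient cells differed from them by -0.24 ± 0.16, lower at 4 of 4 numbers, and the interaction was 0.29 ± 0.23. Bst2 and Irf9 were called in 0 of the 5 labelled comparisons.

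The remaining members with the smallest p in a labelled comparison, in the fit without the block, were also not called. Oasl2 had a log2 change with agLDL of 0.27 ± 0.32 under the Ndst1-deficient label, and Ifi27l2a one of 0.23 ± 0.19 under the wild-type label. Between Ndst1-deficient and wild-type cells, Samd9l had -0.23 ± 0.23 without agLDL, and with agLDL Trim30a had 0.31 ± 0.36 and Tor3a -0.31 ± 0.43. For Ifitm3 the interaction was 0.12 ± 0.15. With the number as a block these changes had smaller standard errors, 0.10 for Oasl2, 0.17 for Trim30a, 0.15 for Tor3a and 0.09 for the Ifitm3 interaction, and were not called either.

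Some members kept their direction at every number without passing the test. With agLDL, 5 members were higher at all 4 numbers under the Ndst1-deficient label (Stat2, Irf9, Usp18, Oasl2 and Samd9l), as were 7.95% of all genes, and 5 under the wild-type label (Zbp1, Adar, Ifi27l2a, Rtp4 and Tor3a), as were 4.92%. Dhx58 was the 1 member lower at all 4 numbers under the Ndst1-deficient label, and under the wild-type label Dhx58 and Parp14 were, against 8.58% and 6.15% of all genes. Between Ndst1-deficient and wild-type cells, Irf7 and Rigi were higher at all 4 numbers both with and without agLDL, while 10.7% and 10.1% of all genes were. Apol9b, which was not detected on mouse number 2, is left out of this count. Lower at all 4 numbers were 5 members with agLDL, among them Isg15, and 6 without, among them Mx1, against 10.1% and 10.6% of all genes.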

How the data were processed

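Total RNA was measured on biotin-labelled, 1-colour Illumina arrays, per the labels. The deposited table held a mean bead intensity per probe and array, not background-subtracted or normalized between arrays, and a detection p-value, per the file headers. The submitters' processing notes name GenomeStudio; its version is not given in the sources used here. A series matrix by the authors held background-subtracted intensities on a linear scale with medians of 11.2 to 11.3, whose exact normalization is unknown. Rank correlations of its columns were 1 with the matching array and no higher than 0.917 with others.

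The neqc function of limma 3.58.1 in R 4.3.3 corrected the background from the negative controls implied by the detection p-values (798), added 16, normalized by quantiles and took log2. Of 25697 probes, 23978 had 1 gene symbol, 0 had several and 1719 had none listed. The probe detected on most of the arrays, then the brightest, stood for its gene. Members, roles and the other lists were chosen with earlier results of these data known. Number fits used the 16 arrays with number and group as terms (9 residual degrees of freedom), label fits 8 averages with group alone (4), each adjusted over 7647 genes by Benjamini-Hochberg at 0.05. Pairing by the numbers, which the labels give, was checked on each array's deviations from its group mean: the 24 same-number pairs correlated between 0.468 and 0.83, so the number also served as a block. A bound on a fold sets the mean of the side that detected a probe against the other side, where an array counts with its own value or, if higher, with the lowest signal it detected. Promoter windows were searched in RefSeq's GRCm38.p6 table. Fits were tested on simulated data. Named in full were the 2 members per role group with the largest change between mouse numbers and the 1 between duplicate numbers, members called against their group, the 3 with the smallest p per labelled comparison, called upstream genes and the 3 widest of the further induced genes. Alternatives were the background correction, scaling, the series matrix, the detection filter, averaging probes, leaving out each array, fits within labels or treatments, averages, animal means and the replicate block. The count over members detected on all 16 arrays and the terms for a mouse number change that differs by genotype label or agLDL were chosen after seeing the data.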

Additional observations from a re-analysis of the deposited data

Results flagged for a closer look

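For 21 members, each set of 4 arrays with the same number was searched for an array far from the other 3, and 9 of the 84 sets held one (its gap to the nearest array, over the range of the 4, was past Dixon's 95% critical value). Chance alone gives about 1 in 20 sets, or 4.2 here. The untreated Ndst1-deficient array numbered 1.2 accounted for 4 of the 9. On it Irf7 read 13.19, against 12.38 to 12.50 on the other 3, Usp18 read 12.76, against 12.93 to 12.94, Mx1 read 8.34, against 9.16 to 9.24, and Tor3a read 9.50, against 10.15 to 10.23. This array also detected the most probes, 10115. Without it 35 members were lower and 1 higher on mouse number 2, and 14 were lower and 2 higher on duplicate number 2.

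The other 5 lay on different arrays. Ifi204 read 8.01 on the wild-type agLDL array numbered 1.1, against 7.56 to 7.62. On the untreated wild-type array numbered 2.1, Oas3 read 9.58, against 9.35 to 9.39, and Cmpk2 read 9.87, against 9.26 to 9.35. Apol9b read 8.24 on the Ndst1-deficient agLDL array numbered 1.2, against 8.01 to 8.04. Ifi27 read 11.32 on the untreated Ndst1-deficient array numbered 2.2, against 10.96 to 11.02.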

How the results depend on the processing

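The count of members lower on mouse number 2, of the 39 and with Isg20 and Apol9b included, was 34 and lay between 33 and 35 under other background corrections, scalings, filters, the series matrix, averaged probes or leaving out any 1 array; it was 25 within the Ndst1-deficient label, 32 within the wild-type label, 28 within untreated and 32 within agLDL arrays, and Ifi27 was called higher each time. The reversals were of uncalled genes: Ifi27l2a was 0.062 within the Ndst1-deficient label and 0.081 within untreated arrays, and ranged from -0.105 to 0.053 over left-out arrays; Zbp1 was 0.069 within the Ndst1-deficient label and ranged from -0.045 to 0.036. The cause was not tested. Of 466 single-member values under other settings 24 (of 10 genes) fell short of the threshold; fits within a label or treatment hold 8 arrays. Between mouse numbers, Parp14 alone lost its call when single arrays were left out, in 9 of the fits.

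Duplicate number calls moved more. The count of members higher on duplicate number 2, 2 by the settings used, was 4 without background correction, 1 from the series matrix, 1 without the filter, 1 within the wild-type label, 0 within the Ndst1-deficient label and 0 within untreated arrays, and 1 to 3 when an array was left out. It was 1 without any of the Ndst1-deficient agLDL arrays 2.1, 1.2 and 1.1, the untreated Ndst1-deficient arrays 2.2 and 1.1, the wild-type agLDL array 1.2 or the untreated wild-type array 1.2. The count lower, 12, was 1 within the Ndst1-deficient label, 7 within agLDL arrays and 3 within untreated arrays, and 10 to 14 when an array was left out. The cause was not tested.

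With a replicate block, by mouse number on the 8 averages or by number on the 16 arrays, 0 members were called in each of the 5 labelled comparisons, as without it, so the pairing changed no call. The 4 animals limit all number comparisons, and position cannot be told apart from mouse number, duplicate number or agLDL.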
